A study of Mus musculus with 4 samples.

Results

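The Kcnq1 domain is a run of imprinted genes on distal mouse chromosome 7, and its genes were followed here in the liver of F1 hybrid mice in which the copy of a gene from MSM/Ms (MSM) could be told apart from that of C57BL/6 J (B6). Members were taken by gene name from a list of 10, namely Cd81, Tssc4, Kcnq1, Kcnq1ot1, Cdkn1c, Slc22a18, Phlda2, Nap1l4, Cars and Osbpl5. Of these, 5 had values (Cd81, Tssc4, Slc22a18, Nap1l4 and Cars), and all 5 had a B6-allele frequency in every mouse. Kcnq1, Kcnq1ot1, Cdkn1c, Phlda2 and Osbpl5 were not analysed here. Among all genes, 8797 had an expression value and 3632 of these, or 41.3%, also had a B6-allele frequency for each of the 4 mice.

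The study sequenced polyA RNA from whole liver of 4 female F1 mice aged 5 months. In 2 mice, called MB mice here with the mother's strain first, the mother was MSM and the father B6, and in the other 2, called BM mice, the mother was B6 and the father MSM. All 4 mice carried 1 copy of each strain's genome, and the crosses differed in which parent gave which copy. The B6-allele frequency is the B6 copy's part of all reads of a gene that could be assigned to an allele, with 0.5 for equal alleles, and FPKM is expression scaled to transcript length and sequencing depth. The mice of a cross were described as biological replicates. The limma p-values and intervals measure the spread between these 4 mice, with each gene's variance drawn toward that of all genes.

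In an imprinted domain, a gene is read mainly or only from the copy inherited from 1 particular parent. In the Kcnq1 domain, an imprinting control region inside an intron of Kcnq1 is methylated on the maternal copy, and on the unmethylated paternal copy it starts the long non-coding RNA Kcnq1ot1, which silences neighbouring genes of the same chromosome. Slc22a18, Phlda2 and Cdkn1c are known as maternally expressed genes near the control region, whereas outer genes such as Cd81, Tssc4, Nap1l4 and Cars are known for imprinting chiefly in the placenta. Reciprocal crosses separate such an effect from a strain effect. A strain bias keeps the same frequency in both crosses, and a parent-of-origin effect moves the frequency to opposite sides of its mean.

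In mm10, the domain from the start of Cd81 to the end of Osbpl5 spanned 704 kb (chromosome 7 from 143052739 to 143756985) and held 32 annotated genes, 13 of them protein coding. Cd81 (143052739 to 143067934, plus strand) and Tssc4 (143069249 to 143071093, plus strand) stood at one edge with 1.315 kb between them. A stretch of 403 kb, with Kcnq1 in it, separated Tssc4 from Slc22a18 (143473736 to 143499334, plus strand). Nap1l4 (143513579 to 143549106) and Cars (143557230 to 143600090) followed, both on the minus strand. Some members overlap other genes. The annotation places R74862 over part of Cd81, Trpm5 over Tssc4 and the pseudogene Gm15580 over part of Cars, each on the opposite strand, and the small RNA genes Gm23297 and Mir7064 inside Nap1l4 and Cars on the same strand. The library was made with a directional kit and aligned with its strand set (fr-firststrand), but whether the counting of reads per gene in Cuffdiff used strand is not given in the sources used here, so reads of overlapping genes may be shared in those values.

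The promoter sequences of Cd81, Tssc4 and Slc22a18 are shown because these are the gene with the strain bias, its close neighbour and the gene whose crosses separated. They are RefSeq reference sequences of GRCm38.p6, on the plus strand, with each CG dinucleotide in capitals. Each runs from 250 bases before to 50 bases after the start used for that window. This start is not the gene start given above, which lies elsewhere in each window. They lie at chr7:143052500-143052799 for Cd81, chr7:143069118-143069417 for Tssc4 and chr7:143473539-143473838 for Slc22a18. Such sequences were matched for 3 of the 5 members.
Cd81: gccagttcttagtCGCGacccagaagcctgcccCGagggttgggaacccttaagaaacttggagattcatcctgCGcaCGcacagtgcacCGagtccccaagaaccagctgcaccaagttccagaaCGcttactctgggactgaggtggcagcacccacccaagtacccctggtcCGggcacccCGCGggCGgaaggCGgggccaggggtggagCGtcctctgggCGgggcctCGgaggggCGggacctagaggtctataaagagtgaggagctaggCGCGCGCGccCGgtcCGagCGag
Tssc4: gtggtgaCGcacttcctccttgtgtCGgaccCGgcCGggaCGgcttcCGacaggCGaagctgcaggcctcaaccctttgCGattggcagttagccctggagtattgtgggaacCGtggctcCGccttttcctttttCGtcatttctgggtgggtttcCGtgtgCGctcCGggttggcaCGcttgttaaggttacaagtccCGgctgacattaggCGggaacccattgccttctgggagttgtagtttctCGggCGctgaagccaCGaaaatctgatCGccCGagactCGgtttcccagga
Slc22a18: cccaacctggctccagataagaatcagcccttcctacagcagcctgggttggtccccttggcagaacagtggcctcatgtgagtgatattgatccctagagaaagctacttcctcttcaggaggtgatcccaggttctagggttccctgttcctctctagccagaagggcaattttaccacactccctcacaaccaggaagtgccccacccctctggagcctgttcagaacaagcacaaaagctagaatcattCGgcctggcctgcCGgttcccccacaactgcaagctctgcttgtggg

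The Cd81 and Tssc4 windows each held 23 CG dinucleotides, and 21.5% of 32851 mouse promoter windows of the same length held at least as many. The Slc22a18 window held 2, and 85.9% of windows held at least as many (median of all windows, 7). The letters TATAAA occurred once in the Cd81 window, and not in the other two, when both strands were searched. TATAAA was held by 13.6% of all windows. The letters GGGCGG, each with a CG counted above, occurred 3 times in the Cd81 window and in 35.7% of all windows. The letters CCAAT occurred once in the Tssc4 window and in 37.4% of all windows. These matches describe the reference letters. The bases at which MSM differs from B6 in these windows were not analysed here.

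Across the 5 members, Cd81 was expressed mainly from the B6 copy whichever parent gave it, Slc22a18 was near equality with slightly more reads from the maternal copy in each mouse, and Tssc4, Nap1l4 and Cars lay close to equality in most mice. Cd81 was the 1 member of 5 that passed the test for a frequency other than 0.5 (limma on log2 odds, Benjamini-Hochberg adjusted p under 0.05), and its bias was toward B6. The same test called 36.2% of all genes in either direction and 22.6% toward B6. No member passed the adjusted test between the crosses, which called 0.0826% of all genes (3 genes, among them the imprinted Igf2r and Meg3). At an unadjusted p under 0.05, the limma test between crosses took 1 of the 5 members, Slc22a18, and 5.23% of all genes. The study gives read pairs per library, but the number of reads behind each frequency is unknown, as the values come without read counts. Precision was therefore judged from the spread between mice, which had a median within-cross SD of 0.0253 over all genes.

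**Figure D1:**
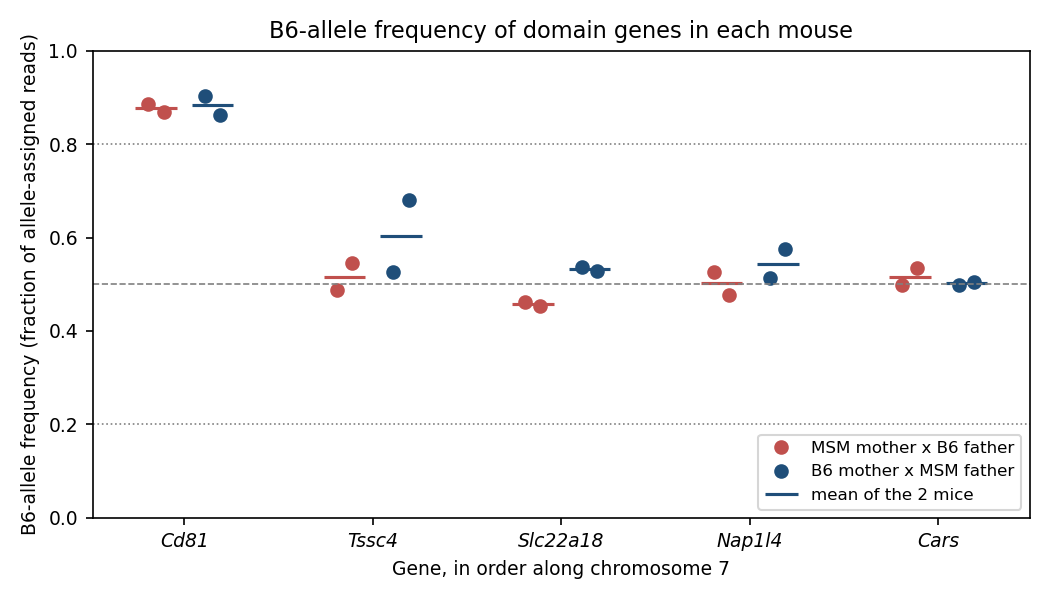
B6-allele frequency (vertical axis, fraction of allele-assigned reads) of the 5 domain genes in order along chromosome 7. Each point is 1 mouse, colours give the cross, short lines are the mean of the 2 mice of a cross, and grey lines mark 0.2, 0.5 and 0.8. Cd81 lies above 0.8 in all 4 mice, and Slc22a18 is the gene whose crosses lie on opposite sides of 0.5.

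Cd81 encodes a tetraspanin, a membrane protein that organises other receptors at the cell surface and serves hepatitis C virus as an entry factor in human hepatocytes. Its B6-allele frequency was 0.887 and 0.868 in the MB mice, and 0.903 and 0.862 in the BM mice. The values of the crosses overlapped, and every mouse was above 0.8. The mean was 0.880 ± 0.0186 (SD, n = 4), and 1.84% of all genes (67 genes) had a mean of at least 0.8. Cd81 stood at rank 34 of 3632 in descending order of mean frequency. On the log2 odds scale the mean was 2.89 (SE 0.13, limma with Benjamini-Hochberg adjusted p = 0.00364). This equals 7.41 reads of the B6 copy for each read of the MSM copy, with a 95% interval of 5.67 to 9.69.

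The frequency of Cd81 did not differ detectably between crosses. The difference, MB minus BM, was -0.00541, with a 95% interval of -0.0710 to 0.0602. On the log2 odds scale it was -0.09 (SE 0.26, limma adjusted p = 0.968), and the exact permutation test of 2 mice against 2 gave p = 1, where 0.33 is the smallest this design allows. The maternal share, meaning the frequency of the mother's allele averaged over the crosses, was 0.503. The interval of the difference leaves room for a parental effect of a few hundredths beside the strain bias.

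Cd81 was also the most highly expressed of the 5 members. Its FPKM was 150 and 117 in the MB mice and 146 and 153 in the BM mice, overlapping between crosses, and 92.5% of all genes had a lower mean FPKM. When each mouse's FPKM was multiplied by its frequency, the B6 copy gave 124 ± 15.5 FPKM and the MSM copy 16.9 ± 2.98 FPKM (SD, n = 4). This split takes the reads that could be assigned to an allele to stand for the rest of the gene. The MSM copy of Cd81 alone was at 14 to 21 FPKM in the 4 mice, so it was expressed in each of them.

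Cd81 was set against the other members within each mouse. Its log2 odds exceeded the mean of the 4 others by 3.01 and 2.70 in the MB mice and by 3.11 and 2.22 in the BM mice. The excess was 2.76 ± 0.40 (SD, n = 4), given as a description with no test, since Cd81 was already the highest member in each mouse. Tssc4, the member closest to Cd81 at 1.315 kb downstream, had a mean frequency of 0.560.

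**Figure D2:**
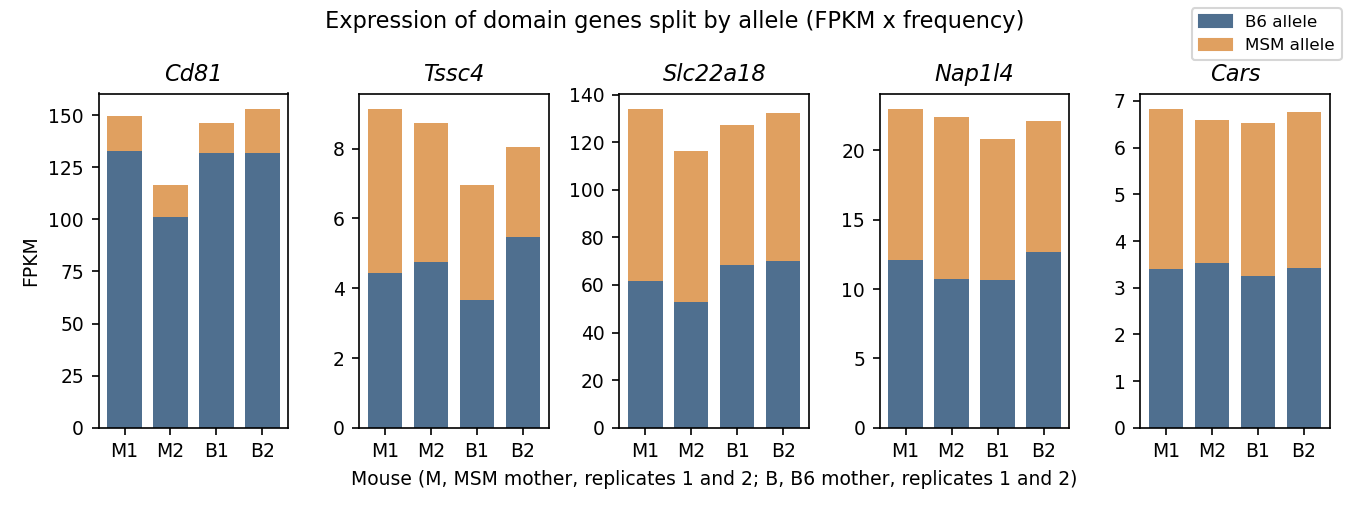
FPKM of each domain gene (vertical axes, from 0, a scale for each gene) in the 4 mice, split into the B6 copy (blue) and the MSM copy (orange) by multiplying FPKM with the B6-allele frequency. The MSM part of the Cd81 bars is 14 to 21 FPKM in every mouse. The parts are closer to equal in the bars of the other genes, least so for Tssc4 and then Nap1l4 in BM replicate 2.

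Slc22a18 encodes a membrane transporter related to the organic cation transporters and is maternally expressed in mouse tissues in which its imprinting is known. Its B6-allele frequency was 0.462 and 0.455 in the MB mice and 0.537 and 0.529 in the BM mice. The mice of each cross lay close together, and the crosses lay on opposite sides of 0.5 without overlap. It was the 1 member of 5 whose frequencies did not overlap between crosses, as did 34.3% of all genes in either direction and 15.9% with higher frequencies in BM mice. MB mice below 0.5 with BM mice above it, the order of a maternal bias, was found in 1.65% of all genes.

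The frequency of Slc22a18 was lower in MB mice, by a difference of -0.0745 with a 95% interval of -0.120 to -0.0291. On the log2 odds scale the difference was -0.43 (SE 0.08, unadjusted limma p = 0.0115, adjusted p = 0.829, exact permutation p = 0.33, the smallest possible here). It did not pass the adjusted test, and 11.3% of all genes had an absolute difference in frequency at least as large. The within-cross SD of 0.00543 was below the median over all genes, so the separation of the crosses rests on closely matching pairs. The maternal copy took 0.538, 0.545, 0.537 and 0.529 of the assigned reads in the 4 mice, with a mean of 0.537 ± 0.00662 (SD), above 0.5 in 4 of 4 mice. In expression terms, the maternal copy gave 68.4 ± 3.60 FPKM and the paternal copy 59.0 ± 4.32 FPKM, a ratio of 1.16 (95% interval 1.06 to 1.27, unadjusted).

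Averaged over the crosses, Slc22a18 showed no strain bias that could be detected. Its mean frequency was 0.496, and its mean log2 odds was -0.02 (SE 0.04, limma adjusted p = 0.670). Its expression was high in this liver, with FPKM of 134 and 116 in the MB mice and 127 and 132 in the BM mice, values that overlapped. Each allele, B6 or MSM, was read at 52.9 to 71.9 FPKM in each mouse.

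Tssc4 encodes a factor that takes part in assembling the splicing machinery. Its B6-allele frequency was 0.488 and 0.545 in the MB mice and 0.526 and 0.680 in the BM mice. The crosses overlapped, and BM replicate 2 stood above the other 3 mice. The mean of 0.560 ± 0.0836 (SD, n = 4) was the second highest among the members, but its mean log2 odds, 0.36 (SE 0.20), missed the threshold with a limma adjusted p of 0.239. Without BM replicate 2 the value was 0.12. The difference between crosses was -0.52 (SE 0.39, limma adjusted p = 0.901), and it was -0.06 without that mouse.

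Tssc4 was expressed at 9.13 and 8.73 FPKM in the MB mice and at 6.97 and 8.06 FPKM in the BM mice. Its spread of frequencies was the widest of the 5 members, with a within-cross SD of 0.0821.

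Nap1l4 encodes a histone chaperone of the nucleosome assembly family. Its B6-allele frequency was 0.526 and 0.478 in the MB mice and 0.513 and 0.575 in the BM mice. The crosses overlapped and 3 of 4 mice were above 0.5. The mean of 0.523 ± 0.0402 corresponded to 0.13 in log2 odds (SE 0.10, limma adjusted p = 0.349). The crosses differed by -0.24 (SE 0.19, adjusted p = 0.901).

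Cars encodes the cysteinyl-tRNA synthetase, which charges tRNA with cysteine in every cell. Its B6-allele frequency was 0.498 and 0.535 in the MB mice and 0.498 and 0.506 in the BM mice. The crosses overlapped, and Cars had the smallest spread over the 4 mice, with a mean of 0.509 ± 0.0174. Its mean log2 odds was 0.05 (SE 0.06) and its cross difference 0.08 (SE 0.12), and neither passed (limma adjusted p = 0.520 and 0.944). The 95% interval of its difference in frequency between crosses ran from -0.0457 to 0.0740, against -0.138 to 0.0538 for Nap1l4 and -0.270 to 0.0966 for Tssc4, so smaller parental effects in these genes could not be detected with 2 mice in each cross.

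The maternal share was above 0.5 in 4 of the 5 members, at 0.543 for Tssc4, 0.537 for Slc22a18, 0.521 for Nap1l4 and 0.503 for Cd81, and at 0.493 for Cars. Over all genes 48.4% had a maternal share above 0.5. Of the 5 members, Slc22a18 was above 0.5 in all 4 mice, and Tssc4 and Nap1l4 in 3. Cd81 and Cars were above it in 2. The median over the members was 0.521, beside 0.4995 over all genes.

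Imprinted genes elsewhere in the genome gave the scale of a full parent-of-origin effect in the same mice. The maternal share was 0.996 for Igf2r, a receptor that clears the growth factor IGF2, and 0.995 for the long non-coding RNA Meg3, and both passed the limma test between crosses (adjusted p = 0.000477 and 0.000497). On log2 odds these calls depend on the limits of 0.01 and 0.99, which all 4 Igf2r frequencies lay beyond. With limits 0.001 from either end neither gene was called (limma adjusted p = 0.223 and 0.462). On the frequency itself, without limits, both were called (limma adjusted p = 0.00260 for each). For the paternally expressed Impact, a regulator of translation, the maternal share was 0.0529, and its cross difference missed the test on log2 odds (limma adjusted p = 0.341) and passed it on the frequency itself (limma adjusted p = 0.0133). Gnas, a G-protein subunit gene with imprinted and biallelic transcripts, had frequencies of 0.389 and 0.407 in the MB mice and 0.557 and 0.594 in the BM mice, without overlap. Its maternal share was 0.589, and its cross difference of -1.03 (SE 0.12) also missed the test (limma adjusted p = 0.601). Blcap overlapped between crosses at a maternal share of 0.518. These were the 5 genes with a frequency among 39 listed imprinted genes, and Slc22a18, at 0.537, lay between Blcap and Gnas.

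**Figure D3:**
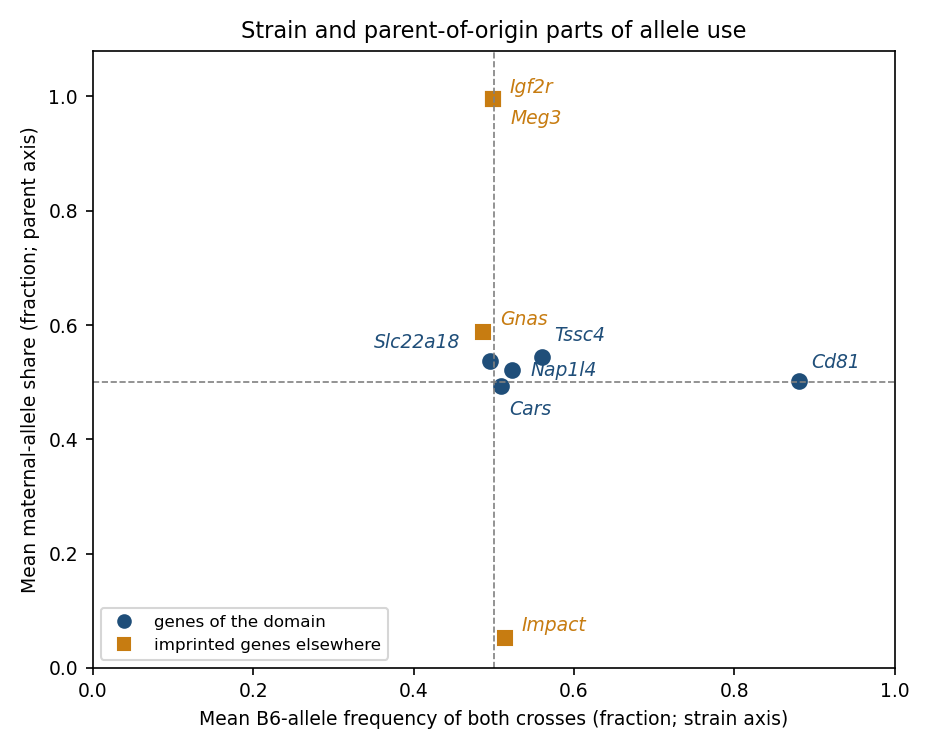
Mean B6-allele frequency of both crosses (horizontal axis, fraction) against the mean maternal-allele share (vertical axis, fraction), with 1 point a gene and dashed lines at 0.5. Domain genes are blue circles and imprinted genes elsewhere orange squares. Cd81 (0.880, 0.503) lies far along the strain axis and Igf2r, Meg3 and Impact along the parent axis, while Slc22a18 (0.496, 0.537) lies close to the crossing of both.

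Genes around the domain were counted in the same way. Of 32 listed neighbours on distal chromosome 7, 10 had a frequency, and 3 passed the limma test toward B6 (Dhcr7 at 0.619, Ap2a2 at 0.593 and Cttn at 0.558). Nadsyn1, an enzyme of NAD synthesis, passed toward MSM at 0.419. None passed the adjusted limma test between crosses. At an unadjusted limma p under 0.05 it took 2, Nadsyn1 and Cttn, beside 5.23% of all genes. Their median frequency was 0.516 beside 0.510 over all genes. Nadsyn1, whose start lies 195 kb beyond Cars, was the nearest gene with a frequency on that side. On the other side the nearest was Mrpl23, 512 kb from Cd81. The frequencies of Nadsyn1 did not overlap between crosses, with a difference of -0.31 on the log2 odds scale (SE 0.09, limma adjusted p = 0.873). Those of Ctsd and Fadd, also higher in BM mice, did not overlap either. Nor did those of Cttn, which were higher in MB mice, with a difference of 0.34. Over all genes, 34.3% did not overlap in either direction.

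Within 2000 kb of the start of Cd81, 29 genes besides the members of the domain had a frequency. Their means ranged from 0.395 to 0.764, with a median of 0.485, and none was above the 0.880 of Cd81. Among 236 genes of chromosome 7 beyond 100 Mb, 1 (BC024386, at 0.996) was higher than Cd81.

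**Figure D4:**
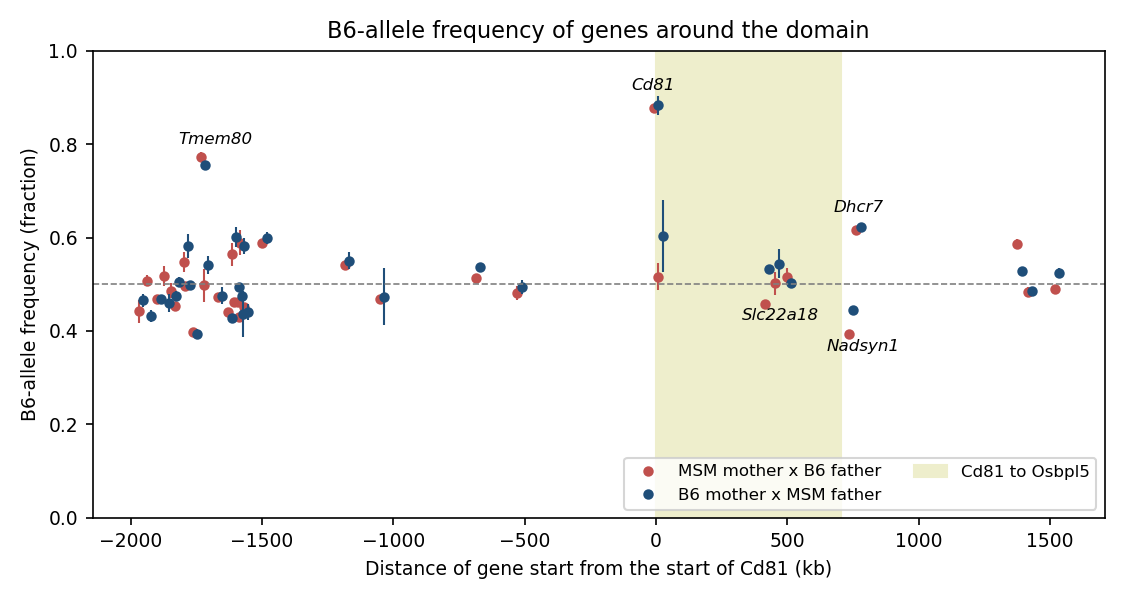
B6-allele frequency (vertical axis, fraction) of genes within 2000 kb of the start of Cd81, against the distance of each gene's start from it in kb. Points are cross means, set slightly left and right of the gene's place by cross, vertical lines join the 2 mice of a cross, and shading marks Cd81 to Osbpl5. Cd81 is the highest gene. Averaged over both crosses, the remaining genes lie between 0.395 and 0.764, and points of a single cross can lie slightly outside this range.

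Total expression of the members was also compared between crosses. On the log2(FPKM + 1) scale, which understates changes of low genes, the difference, MB minus BM, was -0.18 (SE 0.17) for Cd81, 0.22 (SE 0.12) for Tssc4, -0.06 (SE 0.15) for Slc22a18, 0.08 (SE 0.11) for Nap1l4 and 0.01 (SE 0.10) for Cars. No member passed the test, with limma adjusted p-values from 0.600 to 0.983 and 0 members at an unadjusted p under 0.05, and the test called 0.0455% of all genes (4 genes). FPKM did not overlap between crosses for Tssc4 and Nap1l4, both higher in MB mice, which was 2 of 5 members beside 23.0% of all genes. Nap1l4 was at 23.0 and 22.4 FPKM in the MB mice and at 20.8 and 22.1 in the BM mice. Cars was the lowest of the 5, at 6.53 to 6.82 FPKM over the 4 mice.

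Whole liver mixes cell types, and fewer cells of a type and less RNA per cell cannot be told apart in it. Of 6 hepatocyte markers 5 had values, with summed FPKM of 15610 and 15980 in the MB mice and 16097 and 22057 in the BM mice. Cyp2e1, among them, was listed at FPKM 0 in both MB mice. It still had B6-allele frequencies of 0.516 and 0.546 in them, so the 0 does not mean that its reads were absent. It was also the 1 hepatocyte marker that the expression test called. Without it the other 4 summed to 15610 and 15980 in MB against 11221 and 15516 in BM mice, so the order of the crosses turned. No member was listed at 0 in any mouse. Summed markers of Kupffer cells (4 of 5 with values) were 85.4 and 77.8 against 104 and 107. Those of endothelium (5 of 5) were 108 and 99.2 against 113 and 119, so both sums were lower in MB mice. Most of the endothelial sum was Clec4g, which overlapped between crosses at 69.1 and 54.8 against 61.0 and 71.8, as did Lyve1. Stab2, Pecam1 and Kdr were lower in MB mice without overlap. Red cell genes (3 of 4) were at 302 and 122 against 761 and 444. Of these, Hba-a1 overlapped between crosses at 124 and 36.0 against 136 and 23.6, and Hba-a2 and Hbb-bs were lower in MB mice. Stellate cell markers (2 of 5) summed to 94.2 and 80.4 in MB mice against 64.6 and 73.6 in BM mice, higher in MB mice without overlap. Most of this sum was Dcn, also on the list of imprinted genes, at 88.9 and 73.7 against 58.7 and 67.5. Reln, the other marker, overlapped between crosses at 5.25 and 6.72 against 5.84 and 6.12. The single cholangiocyte marker with values (1 of 5) ran from 9.51 to 14.6, and no lymphocyte marker of 4 had values. These lists moved between the mice beside the cross difference of Slc22a18, and their part in it was not tested. The mother's strain changes together with the parental origin of each allele in this design, so the 2 cannot be told apart.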

How the data were processed

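PolyA RNA of 4 livers was sequenced by the authors with a directional kit. Reads were trimmed with Trim Galore! and aligned with TopHat2 to mm10 masked at single-base differences between the strains. They were sorted by allele with SNPsplit and counted per gene with Cuffdiff. Masking of other differences is not stated, and whether reads of the MSM copy aligned less well was not tested. Tool versions are not given in the sources used here. The deposited values per gene and mouse are an FPKM and a fraction, the B6-allele frequency that the authors obtained as B6 reads over B6 plus MSM reads. Which genes were listed follows a filter whose rule is not given in the sources used here. The lowest mean FPKM of a listed gene was 2.50. Total FPKM per mouse over listed genes was 529024 to 671875. Read counts behind each value are unknown, so no interval was given for a single frequency.

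From these values, frequencies were limited to 0.01 to 0.99, turned into log2 odds and fitted over all 3632 genes with limma 3.58.1 in R 4.3.3, with a mean and a cross term. Expression was fitted with limma, with a variance trend, on log2(FPKM + 1) over the 8797 genes whose mean FPKM was 1 or more. Each test was two-sided, and p-values were adjusted by Benjamini-Hochberg over all genes, with a threshold of 0.05. Intervals are 95% limma intervals. Single genes were also compared by exact permutation (scipy 1.17.1). Python 3.11.15, pandas 2.3.3, numpy 2.4.6 and, for plots, matplotlib 3.10.9 did the rest. Each fit was checked on simulated data with 200 changed genes. Planted log2 effects of 2 for imbalance, 6 between crosses and 2 for expression were called in 184, 191 and 176 of them. The planted cross and expression effects were larger than those of any member, so the check does not cover the members' sizes. Gene positions came from GENCODE M21 on GRCm38, the mm10 assembly. The genes named are the members and 2 lists, of neighbours and of imprinted genes elsewhere, those with a frequency being given by value or count. Genes outside them (R74862, Trpm5, Gm15580, Gm23297, Mir7064, BC024386 and the marker genes) were named for position, rank or cell type, some after their values were seen. Members and lists were chosen with earlier results of these data known. Alternatives were other frequency limits, an untransformed or arcsine-transformed frequency, centring of each mouse, other pseudocounts and scalings, and other FPKM minimums. Further ones were a variance trend added for frequencies or left out for expression, a replicate block and each mouse left out. For frequencies, the fit was also limited to genes beyond 100 Mb (10 Mb on chromosomes 16 to 19).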

Additional observations from a re-analysis of the deposited data

Results flagged for a closer look

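Slc22a18 was picked out because both mice of one cross lay below 0.5 and both of the other above it, with a difference in B6-allele frequency of -0.0745 (MB mice minus BM mice). Its difference missed the adjusted limma test (limma adjusted p = 0.829). Fadd, a neighbour of the domain that encodes a death receptor adaptor, met the same condition at -0.0344, and so did the imprinted genes Gnas at -0.177 and Impact at 0.894. None of these 3 passed the adjusted limma test between crosses on log2 odds, and Impact passed it on the frequency scale (adjusted p = 0.0133). The condition was also met by Igf2r at -0.992 and Meg3 at -0.99, and for them the limma test of the difference passed, though not with frequency limits 0.001 from either end. Over all genes, 3.77% had their crosses on opposite sides of 0.5 in either order. A search for single mice far from their group was not made, as each cross has 2.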

How the results depend on the processing

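Cd81 passed the imbalance test in 14 of 14 alternatives, with limma adjusted p from 0.000673 to 0.0410, and its log2 odds was 2.75 to 3.03 with a mouse left out. The cross difference of Slc22a18 kept its direction in 14 of 14 alternatives. Its frequencies did not overlap between crosses, so every alternative except centring each mouse had to keep this direction, and the count does not test it. With all mice kept, it did not pass adjustment in any alternative, with limma adjusted p from 0.723 to 0.883. With a mouse left out, the difference in log2 odds ran from -0.454 to -0.408. Tssc4 and Cars could not be computed at a mean FPKM of at least 10. With a mouse left out, its cross rests on 1 mouse that is assumed to vary like the others.

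No value that reversed passed a test. The imbalance of Cars was -0.00356 with each mouse centred and -0.000758 without MB replicate 2, with left-out values up to 0.106. Cross differences in log2 odds that reversed with a mouse left out were 0.04 (without MB replicate 2) and 0.20 (without BM replicate 1) for Cd81, and -0.0245 for Cars (without MB replicate 2). Left-out cross differences ran from -0.38 to 0.20 for Cd81, from -0.0245 to 0.19 for Cars and from -0.99 to -0.06 for Tssc4. The expression difference of Cars was -0.00769 under median scaling and -0.0122 to 0.0326 with a mouse left out. Left-out expression differences ran from -0.354 to 0.00307 for Cd81 and from -0.155 to 0.0439 for Slc22a18, positive for both without MB replicate 2.

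Over all genes, the imbalance test called 1316, against 850 at a mean FPKM of at least 10 (2000 genes tested) and 181 to 514 with a mouse left out. Centring each mouse gave 705 toward B6 and 604 toward MSM, against 822 and 494. The test between crosses called 3, against 1 with limits 0.001 from either end, 1 at a mean FPKM of at least 10 and 0 to 6 with a mouse left out. Igf2r and Meg3 were each called in 10 of 13 alternatives, the exceptions being limits 0.001 from either end (limma adjusted p = 0.223 and 0.462) and leaving out MB replicate 2 (0.0561 for both) or BM replicate 2 (0.0501 for both). Impact was called in 1 of 12, on the frequency scale (limma adjusted p = 0.0133). The test called 0 without MB replicate 2 and without BM replicate 2, with 224 and 159 genes at an unadjusted p under 0.05. The expression test called 4, and 13 to 23 with a mouse left out. Apart from the sizes of the sets tested, the cause of these changes was not tested.

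A replicate block gave 775 calls of imbalance, 2 between crosses and 285 of expression (133 higher and 152 lower in MB mice), and called Cd81 alone among the members for imbalance. No litter, batch or day is tied to a replicate number by the labels. Deviations of equally numbered mice correlated at 0.147 for log2 odds and 0.00375 for log2(FPKM + 1), and with 2 numbers these are not treated as pairs.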
